A study of Mus musculus with 12 samples.

Results

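The BCL2 family decides whether a cell holds its mitochondria intact or opens them and dies, and 10 of its genes were followed here through every library of the study. They were Bcl2, Bcl2l1, Mcl1 and Bcl2a1d, which favor survival, Bax and Bak1, the pore-forming effectors, and Bcl2l11, Bbc3, Pmaip1 and Bid, the BH3-only genes. The genes were taken by symbol through their Ensembl identifiers on GRCm38, and all 10 were found among the 55487 genes of both count tables. In the annotation, Bcl2 lies at chr1:106538178-106714274, Bcl2l1 at chr2:152780668-152831728, Mcl1 at chr3:95658788-95663176, Bax at chr7:45461697-45466898, Bak1 at chr17:27019810-27029009, Bcl2l11 at chr2:128126038-128162547, Bbc3 at chr7:16308393-16318205 and Bid at chr6:120891930-120916853, and reads were counted over the exons of each. All 10 passed the filter on low counts in both experiments.

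The study asked how macrophages change in osteoporosis and how mesenchymal stem cells (MSCs) change beside them. In the first experiment, bone marrow-derived macrophages (BMMs) came from the limbs of C57BL/6 mice labelled as 8 weeks old. The mice had been ovariectomized (OVX, 3 libraries) or sham operated (3 libraries). Ovariectomy removes ovarian estrogen and is used as a model of postmenopausal bone loss. The study's methods give 8 weeks as the age at surgery, so the age at which cells were taken is uncertain. The cells were differentiated with the macrophage growth factor M-CSF. In the second, MSCs of 8-week C57BL/6 mice, grown out from marrow by adherence and passage, were left untreated (MSC, 2 libraries), co-cultured with RAW cells (MSC+RAW-TW, 2 libraries) or co-cultured with RAW cells that had been stimulated with LPS (MSC+RAW-LPS-TW, 2 libraries). RAW cells are a mouse macrophage leukemia line, so their transcripts cannot be told from those of MSCs by species, and the transwell named in the group label is a porous insert between the 2 cell types. No library of RAW cells alone was analysed here. The labels do not say whether libraries of a group came from separate mice or cultures, so the p-values measure the spread between these libraries, which may be technical.

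Library totals ran from 17012923 to 45367105 counts, and a member gene rested on 52 to 16895 counts in a library. Sham 2 and sham 3 differed from each other by a median of 3.09 times sampling noise in highly counted genes, and the MSC+RAW-TW libraries a and b by 3.56 times, whereas every other pair of replicates differed by 44.8 to 353 times. Each of these near-identical pairs was counted as 1 sample, which left 3 OVX against 2 sham samples and 2, 1 and 2 samples in the MSC groups. The single MSC+RAW-TW sample was assumed to vary like the other MSC groups. Libraries also differed by the GC content of the genes they favored, with rank correlations of -0.58 to -0.33 in OVX, 0.21 to 0.49 in sham, -0.30 to -0.25 in MSC, 0.37 to 0.38 in MSC+RAW-TW and -0.28 to -0.13 in MSC+RAW-LPS-TW. Fold changes after removal of these trends are therefore given where a member then passed or no longer passed.

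The labelled cell types were checked against 10 macrophage and 10 stromal markers. All 10 macrophage markers were above 1 CPM (counts scaled to library size) in every library of both experiments. Their summed level was 40610 to 45126 CPM in OVX, 54628 to 59278 in sham, 26179 to 26282 in MSC, 33985 to 34529 in MSC+RAW-TW and 13076 to 14217 in MSC+RAW-LPS-TW. The libraries labelled MSC thus carried macrophage transcripts throughout, also without RAW cells, with the macrophage marker Lyz2 at 21597 to 21688 CPM in MSC. Thy1, a surface marker by which MSCs are recognized, stood at 0.293 to 0.449 CPM in MSC, and the collagen gene Col1a1 at 453 to 459 CPM. Of the 10 stromal markers, 9 were at 1 CPM or more in every MSC library. Their median was 117 to 119 CPM in MSC, 78.0 to 87.7 CPM in OVX and 92.4 to 95.8 CPM in sham. The name MSC is used below as the labels give it. The summed stromal markers stood at 7394 to 8045 CPM in OVX and 7092 to 7568 CPM in sham, so the macrophage libraries carried stromal transcripts too. The 6 neutrophil markers summed to 1061 to 1162 CPM in OVX and 684 to 829 CPM in sham. The part of these cell mixtures in the results was not tested, and in bulk RNA fewer cells of a type and less RNA per cell cannot be told apart.

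The proteins of this family meet on the outer mitochondrial membrane. BCL2, BCL-XL (from Bcl2l1), MCL1 and A1 (from the Bcl2a1 genes) hold the effectors BAX and BAK in check, and the BH3-only proteins BIM (Bcl2l11), PUMA (Bbc3), NOXA (Pmaip1) and BID bind them and release that hold. Freed effectors perforate the membrane, cytochrome c escapes, and caspases are activated. In macrophages, Bcl2a1 genes are known as targets of the inflammatory transcription factor NF-κB, and MCL1 is a short-lived protein that is rapidly replaced from its transcript.

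The mouse carries several near-identical copies of Bcl2a1, and this limits what the value of 1 copy means. In GRCm38, Bcl2a1d lies at chr9:88723285-88731914 on the minus strand, Bcl2a1a at chr9:88956900-88962419 and Bcl2a1b at chr9:89199209-89207827, both on the plus strand. The coding sequences of all 3 copies are 516 bases long. Bcl2a1d differs from Bcl2a1a at 7 of these bases and from Bcl2a1b at 6, which leaves 98.6% and 98.8% identity. The first 120 coding bases, from the start codon on and in 1 exon, are shown because they hold 7 of the 12 positions at which any copies differ. Capitals mark those positions.
Bcl2a1d: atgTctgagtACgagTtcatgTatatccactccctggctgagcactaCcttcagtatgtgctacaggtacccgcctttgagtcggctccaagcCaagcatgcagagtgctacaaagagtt
Bcl2a1a: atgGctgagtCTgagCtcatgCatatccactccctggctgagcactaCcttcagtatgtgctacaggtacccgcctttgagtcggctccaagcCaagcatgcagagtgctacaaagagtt
Bcl2a1b: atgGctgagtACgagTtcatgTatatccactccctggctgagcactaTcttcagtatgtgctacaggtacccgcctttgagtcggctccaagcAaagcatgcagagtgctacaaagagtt

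These stretches lie at chr9:88731600-88731719 on the minus strand, chr9:88957051-88957170 on the plus strand and chr9:89199360-89199479 on the plus strand. Of all windows of 150 bases, the length of a sequenced read, 30.3% in the Bcl2a1d transcript occurred letter for letter in another Bcl2a1 transcript, 28.2% in Bcl2a1a and 14.2% in Bcl2a1b. A read from such a window cannot be placed on 1 copy without the other read of its pair, so the split of counts between copies is uncertain. Their sum does not depend on that split. How reads with several matches were counted is not given, and reads left out would be missing from the sum too.

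A promoter stretch of each copy is shown too, because the copies were highest together in 1 group of libraries. Any part of the promoters in this was not tested. RefSeq promoter windows on GRCm38, from 250 bases before to 50 after a start site, were found for every member but Pmaip1, and for Bcl2a1a and Bcl2a1b. The stretches below are 80 bases long and end next to the annotated start of Bcl2a1d and 45 bases before those of Bcl2a1a and Bcl2a1b. Capitals mark GAGGAAGT, the letters of a purine-rich box of the kind bound by the myeloid factor PU.1.
Bcl2a1d: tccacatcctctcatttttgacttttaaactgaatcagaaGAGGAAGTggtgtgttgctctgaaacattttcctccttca
Bcl2a1a: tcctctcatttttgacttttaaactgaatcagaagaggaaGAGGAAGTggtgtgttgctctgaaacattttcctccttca
Bcl2a1b: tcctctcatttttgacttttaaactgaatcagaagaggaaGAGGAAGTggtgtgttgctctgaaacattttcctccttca

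They lie at chr9:88731915-88731994 on the minus strand and at chr9:88956776-88956855 and chr9:89199085-89199164 on the plus strand. The stretches of Bcl2a1a and Bcl2a1b were the same letter for letter, with 2 units of GAGGAA, and that of Bcl2a1d held 1. Searched on both strands, GAGGAAGT occurred in 3.20% of the 32851 promoter windows of the table, and among the members' windows it occurred in those of Bcl2a1d and Bak1. No other motif was searched. A match is a description of letters and not a bound site.

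In macrophages, ovariectomy was accompanied by a change in 1 of the 10 genes, a rise of Pmaip1, which encodes the MCL1-binding protein NOXA. Across all 16768 genes tested in this comparison, 13.1% passed at an adjusted p of at most 0.05, so a count of 1 in 10 was near the background. The background was 7.25% for rises and 5.83% for falls, and 8.46% with a limit of 2-fold in addition, which Pmaip1 also passed. Pmaip1 stood at 31.8, 23.9 and 29.8 CPM in OVX 1, 2 and 3, and at 10.3, 7.91 and 6.11 CPM in sham 1, 2 and 3. Every OVX library was above every sham library. The group means were 28.5 ± 4.07 CPM (SD, n = 3) and 8.67 ± 2.35 CPM (SD, n = 2), and the log2 fold change was 1.72 (SE 0.25, 3.28-fold, adjusted p = 0.0080 by edgeR's quasi-likelihood test with Benjamini-Hochberg adjustment). The rise passed in all 15 alternative fits, and its log2 fold change was 1.01 with GC and length trends removed.

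Mcl1, the partner that NOXA binds, was the most highly counted member and did not pass. It stood at 487, 381 and 328 CPM in OVX and at 437, 328 and 326 CPM in sham. The 2 groups overlapped over most of their range, with a log2 fold change of 0.05 (SE 0.23, adjusted p = 0.91).

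The other survival genes did not pass the test either. Bcl2, the founding member, stood at 6.40, 5.28 and 6.69 CPM in OVX and 3.12, 3.29 and 4.797 CPM in sham (log2 fold change 0.74, SE 0.27, adjusted p = 0.10). Bcl2l1, which encodes BCL-XL, stood at 36.7, 51.4 and 50.4 CPM in OVX and 63.5, 85.4 and 80.8 CPM in sham (log2 fold change -0.68, SE 0.22, adjusted p = 0.078). Neither gene's groups overlapped, with Bcl2 higher and Bcl2l1 lower in OVX. Bcl2a1d stood at 10.6, 11.4 and 8.14 CPM in OVX and at 32.8, 11.3 and 10.03 CPM in sham (log2 fold change -1.12, SE 0.41, adjusted p = 0.11). Only sham 1 lay above the OVX range, and without sham 1 the log2 fold change was -0.08. Of the 10 macrophage markers, Adgre1 was likewise highest in sham 1, at 2630 CPM against 613 to 1571 CPM in the other BMM libraries. Not all of these markers did so, and Ptprc stood at 71.4 to 86.8 CPM in sham and 105 to 159 CPM in OVX. The part of such markers in the result was not tested. Over 15 alternative fits, Bcl2l1 passed in 6, among them the fit without sham 1 (log2 fold change -0.85), Bcl2a1d in 2 and Bcl2 in 1.

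Both effectors were lower in every OVX library than in every sham library and did not pass. Bax stood at 64.8, 55.2 and 51.5 CPM in OVX and 70.9, 79.4 and 76.2 CPM in sham (log2 fold change -0.39, adjusted p = 0.19). Bak1 stood at 51.3, 61.9 and 63.2 CPM against 78.6, 97.1 and 88.0 CPM (log2 fold change -0.55, adjusted p = 0.089). With GC and length trends removed the values were 0.09 for Bax, which turned its direction, and -0.12 for Bak1.

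The other BH3-only genes did not pass either. Bcl2l11, which encodes BIM, stood at 19.5 to 22.7 CPM in OVX and 24.3 to 27.1 CPM in sham (adjusted p = 0.26). Bbc3, the p53 target that encodes PUMA, stood at 11.2 to 13.4 CPM and 13.2 to 16.2 CPM (adjusted p = 0.39). Bid, the link from death receptors to mitochondria, stood at 42.5 to 54.0 CPM and 29.7 to 47.4 CPM (adjusted p = 0.57). In all, 6 of the 10 members had groups that did not overlap, beside 42.9% of all genes tested, and 1 of these 6 passed.

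**Figure D1:**
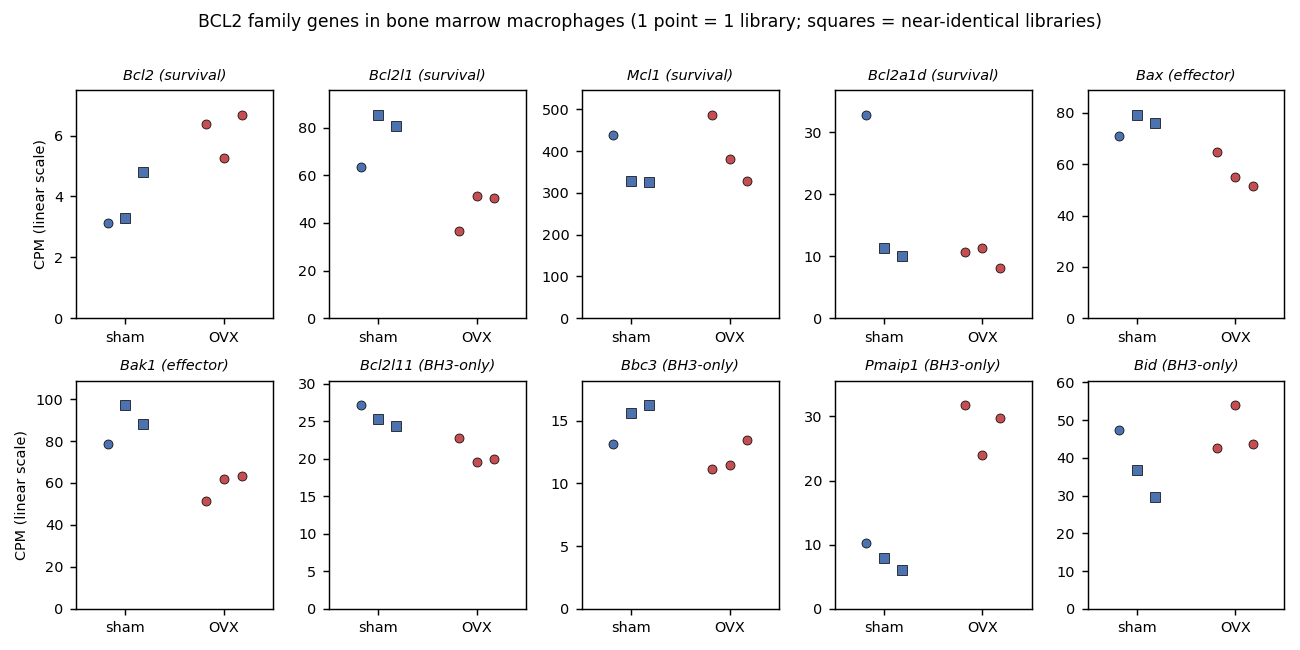
TMM-normalized CPM (linear axes from 0) of the 10 genes in each BMM library, 1 point a library, with sham 2 and sham 3 as squares because they were near-identical. Pmaip1 was at 23.9 to 31.8 CPM in OVX and at 6.11 to 10.3 CPM in sham, and Bcl2a1d was highest in sham 1 at 32.8 CPM.

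The neighboring genes of the pathway in BMMs were read from fixed lists, beside the 13.1% of all genes that passed (7.25% higher, 5.83% lower). Of 10 tested genes among the 14 other BCL2 family genes, 0 rose and 2 fell at the adjusted p of 0.05. These were Bcl2a1a, with a log2 fold change of -1.68 (SE 0.26, adjusted p = 0.0088), and Bad, a BH3-only gene chosen for mention after its value was seen, at -0.79. Bcl2a1a stood at 7.86, 7.74 and 7.64 CPM in OVX and 31.5, 15.8 and 19.1 CPM in sham, and its groups did not overlap. It passed without sham 1 (log2 fold change -1.20) but not without OVX 2, at an adjusted p of 0.058 in a range of 1.29e-08 to 0.058 over the alternatives. Bcl2a1b, the most highly counted copy, stood at 67.4, 72.4 and 73.6 CPM in OVX and 101, 47.5 and 47.5 CPM in sham and did not pass (log2 fold change -0.08). The summed copies gave -0.45 (SE 0.30, adjusted p = 0.34).

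Among the apoptosome and caspase genes, Casp9, the initiator caspase of the mitochondrial route, was the 1 of 10 that passed, and it fell by 0.61 on the log2 scale (adjusted p = 0.0499). Among 7 inhibitor of apoptosis genes and their antagonists, Xiap, a direct caspase inhibitor, rose by 0.79 and Birc3, an NF-κB-responsive ubiquitin ligase, had a log2 fold change of -0.94 (adjusted p = 0.040 and 0.028). Of 7 tested death receptor genes, 0 passed with edgeR and 1 with DESeq2 (the TNF receptor gene Tnfrsf1a, at -0.73, named after its value was seen), and 2 had an unadjusted p below 0.05. Of 11 tested p53 genes, 3 rose, namely Trp53inp1, a p53 target linked to cell death and autophagy, at 1.42, and Ccng1 and Gadd45a, 2 more targets named after their values were seen, at 1.29 and 1.01. With trends removed, the values were -0.36 for Bad, -0.23 for Casp9, 0.15 for Xiap, 0.60 for Trp53inp1 and 0.27 for Ccng1, and these 5 genes no longer passed, whereas Birc3 did at -1.16 and Gadd45a at 1.48. Casp9 also did not pass without any single library other than sham 3, Xiap without OVX 1, OVX 2 or OVX 3, Birc3 without OVX 2 or OVX 3, and Bad without OVX 1, OVX 2 or OVX 3. Trp53inp1, Ccng1 and Gadd45a did not pass without OVX 1 or without OVX 2. The list medians were -0.12, 0.22, 0.34, -0.40 and -0.18 in this order, beside -0.01 over all genes, and -0.02, 0.03, -0.31, -0.39 and 0.07 with trends removed, which turned those of the inhibitors and the p53 genes.

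In the MSC+RAW-LPS-TW libraries, 3 survival genes differed from the untreated MSC libraries. Bcl2a1d rose and Bcl2 and Bcl2l1 fell, while Mcl1, both effectors and the 4 BH3-only genes did not pass. Of all 20499 genes tested, 20.9% passed, 11.1% higher and 9.85% lower, so a count of 3 in 10 was near the background. All 3 also passed with a limit of 2-fold in addition, beside 10.9% of all genes. The 3 passed in all 15 alternative fits, and their log2 fold changes moved by less than 0.05 when GC and length trends were removed.

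Bcl2a1d stood at 19.2 and 15.8 CPM in MSC 1 and 2 and at 84.0 and 59.4 CPM in the MSC+RAW-LPS-TW libraries MRL-2 and MRL-3. The lowest MSC+RAW-LPS-TW library was well above the highest MSC library. The group means were 17.5 ± 2.38 CPM and 71.7 ± 17.4 CPM (SD, n = 2 each), and the log2 fold change was 2.03 (SE 0.19, 4.08-fold, adjusted p = 1.18e-06). The other copies also rose. Bcl2a1a went from 8.90 and 11.03 CPM to 49.4 and 40.7 CPM (log2 fold change 2.18, adjusted p = 4.98e-07), and Bcl2a1b from 66.8 and 59.4 CPM to 171 and 159 CPM (1.38, adjusted p = 5.78e-06). The sum of the 3 copies, which does not depend on how reads were split, rose by 1.63 (SE 0.16, adjusted p = 1.24e-06).

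Bcl2l1 stood at 172 and 178 CPM in MSC and at 76.7 and 86.6 CPM in MSC+RAW-LPS-TW. The groups were far apart relative to their spread, at 175 ± 4.25 and 81.7 ± 7.04 CPM (SD, n = 2 each), and the gene fell by 1.10 on the log2 scale (SE 0.15, adjusted p = 5.00e-05). Bcl2 stood at 14.5 and 16.0 CPM against 5.31 and 8.32 CPM, and fell by 1.17 (SE 0.24, adjusted p = 0.0023). Mcl1 stood at 345 and 402 CPM against 293 and 321 CPM, which did not pass (log2 fold change -0.29, adjusted p = 0.23). Survival genes of the same family therefore differed in opposite directions in the same libraries.

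Neither effector and no BH3-only gene passed in this comparison. Bax stood at 47.1 and 46.1 CPM in MSC and 49.8 and 53.5 CPM in MSC+RAW-LPS-TW (log2 fold change 0.14, SE 0.15, adjusted p = 0.58). Bak1 stood at 94.7 and 99.98 CPM against 85.6 and 86.3 CPM (-0.18, SE 0.15, adjusted p = 0.45). Bcl2l11, Pmaip1 and Bid had log2 fold changes of -0.40, 0.03 and -0.25 (adjusted p = 0.21, 0.96 and 0.33). Bbc3 stood at 9.63 and 10.6 CPM in MSC and at 4.50 and 10.2 CPM in MRL-2 and MRL-3, so that only MRL-2 lay below the MSC range (log2 fold change -0.47, SE 0.29, adjusted p = 0.31). Without MRL-3 the Bbc3 value was -1.17, and this was the 1 of its 15 alternatives that passed.

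**Figure D2:**
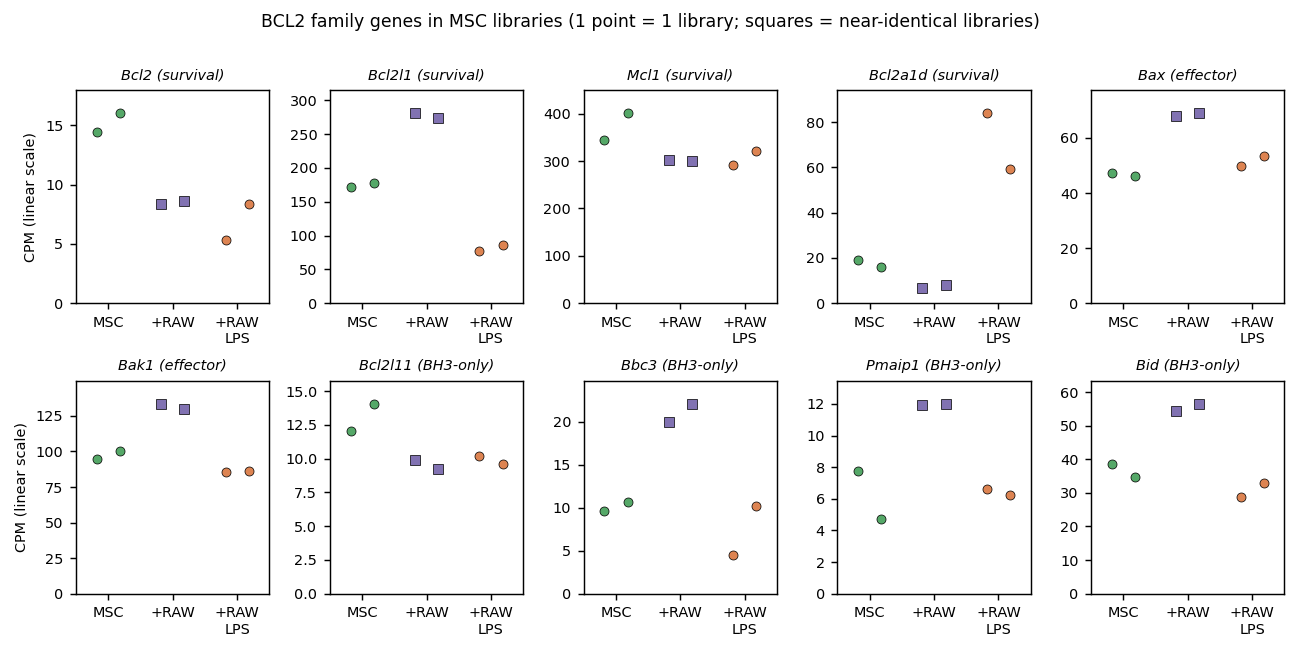
TMM-normalized CPM (linear axes from 0) of the 10 genes in each library of the MSC experiment, 1 point a library, for untreated MSC, MSC+RAW-TW (+RAW, squares because the libraries were near-identical) and MSC+RAW-LPS-TW (+RAW LPS). Bcl2l1 was at 274 to 281 CPM with RAW cells and at 76.7 to 86.6 CPM with LPS-stimulated RAW cells, and Bcl2a1d ran the other way, from 6.85 to 7.85 CPM up to 59.4 to 84.0 CPM.

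Within the MSC experiment, Bcl2l1 was highest and Bcl2a1d lowest beside unstimulated RAW cells. The MSC+RAW-TW libraries enter both remaining contrasts, so these share libraries with each other and with the one above, and each contrast's values are given side by side. The median log2 fold change over all genes was 0.14 for the LPS co-culture compared with MSC+RAW-TW and -0.13 for MSC+RAW-TW against MSC, against which each value is to be read. Of the 10 members, 6 passed in the first contrast (1 higher, 5 lower), where 40.2% of all genes passed (21.3% higher, 18.9% lower). In the second, 7 passed (5 higher, 2 lower), where the share of all genes was 28.6% (13.8% higher, 14.8% lower). With a limit of 2-fold in addition, 3 and 2 members passed, beside 27.4% and 16.4% of all genes.

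Bcl2l1 stood at 281 and 274 CPM in MSC+RAW-TW, above all other libraries of the experiment. It rose by 0.70 against MSC (SE 0.18, adjusted p = 0.0086), and MSC+RAW-LPS-TW was lower than MSC+RAW-TW by a log2 fold change of -1.80 (SE 0.17, adjusted p = 1.54e-06). Its order was thus MSC+RAW-TW, MSC, MSC+RAW-LPS-TW, with each neighboring pair past the threshold, but with trends removed the step from MSC to MSC+RAW-TW was 0.45 and did not pass (adjusted p = 0.062). Bcl2a1d stood at 6.85 and 7.85 CPM in MSC+RAW-TW, below all other libraries of the experiment. Its log2 fold change was -1.24 against MSC (SE 0.25, adjusted p = 0.0020), and MSC+RAW-LPS-TW exceeded MSC+RAW-TW by 3.26 (SE 0.27, 9.61-fold, adjusted p = 3.28e-07). The order of Bcl2a1d was the reverse of that of Bcl2l1, again with each pair past the threshold. With trends removed its difference between MSC+RAW-TW and MSC was -0.64 and did not pass (adjusted p = 0.062). The Bcl2a1 copies summed did not pass between MSC+RAW-TW and MSC (log2 fold change -0.13, SE 0.19, adjusted p = 0.62), and summed they differed by 1.77 between MSC+RAW-LPS-TW and MSC+RAW-TW.

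Bcl2 stood at 8.34 and 8.63 CPM in MSC+RAW-TW, with a log2 fold change of -0.82 against MSC (SE 0.30, adjusted p = 0.0495), and did not pass between the co-cultures (-0.35, SE 0.29, adjusted p = 0.35). MSC was thus highest, and the difference between the co-cultures did not pass. With trends removed this was turned around, with -0.23 against MSC, which did not pass, and -0.93 between the co-cultures, which did. Mcl1 stood at 302 and 300 CPM and passed in neither contrast (log2 fold changes -0.28 and -0.003). With trends removed, however, Mcl1 had a log2 fold change of -0.66 against MSC and passed.

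The effectors were highest with unstimulated RAW cells. Bax stood at 68.0 and 69.1 CPM and rose against MSC by 0.58 (SE 0.18, adjusted p = 0.024), and MSC+RAW-LPS-TW was lower by -0.44 without passing (adjusted p = 0.064). Bak1 stood at 134 and 130 CPM, which did not pass against MSC (0.47, adjusted p = 0.058), and was lower in MSC+RAW-LPS-TW by a log2 fold change of -0.65 (SE 0.17, adjusted p = 0.0077). With GC and length trends removed, neither effector passed in either contrast, with values of 0.01 and 0.13 for Bax and -0.10 and -0.07 for Bak1. Both genes are rich in G and C, at 58.4% and 57.6% as the mean over their annotated transcripts.

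Of the BH3-only genes, 3 were also highest there and Bcl2l11 was not. Bbc3 stood at 20.002 and 22.1 CPM and rose by 1.08 against MSC (SE 0.34, adjusted p = 0.026), with -1.55 between the co-cultures (SE 0.34, adjusted p = 0.0019). With trends removed its values were 0.18, which did not pass (adjusted p = 0.72), and -0.93, which did. Its G and C content was 68.6% as the mean over its annotated transcripts. Between the co-cultures it was at -1.06 without MRL-2 and -2.24 without MRL-3. Pmaip1 stood at 11.9 and 12.02 CPM, above 4.75 to 7.74 CPM in MSC and 6.25 to 6.60 CPM in MSC+RAW-LPS-TW, with log2 fold changes of 0.96 (adjusted p = 0.029) and -0.93 (adjusted p = 0.025), or 1.71 and -1.70 with trends removed. With DESeq2 the second had an adjusted p of 0.051, in a range of 0.00095 to 0.051 over the alternatives. Bid stood at 54.4 and 56.6 CPM, above 34.8 to 38.5 CPM in MSC and 28.9 to 33.1 CPM in MSC+RAW-LPS-TW, with 0.62 (adjusted p = 0.023, and 0.50 without passing when trends were removed) and -0.87 (adjusted p = 0.0018). For these 3 genes MSC and MSC+RAW-LPS-TW were the neighbors whose difference did not pass. Bcl2l11 stood at 9.93 and 9.26 CPM and passed in neither contrast (log2 fold changes -0.41 and 0.01).

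Both contrasts with MSC+RAW-TW rest on 1 independent sample of that group. In MSC+RAW-TW against MSC, with trends removed, 2 members passed instead of 7, Mcl1 at -0.66 and Pmaip1 at 1.71. Without MSC 1, 3 passed (Bcl2a1d, Bbc3 and Pmaip1), and without MSC 2, 2 passed (Bcl2a1d and Bbc3). Between the co-cultures, 6 members passed with trends removed, with Bcl2 (-0.93) in the place of Bak1. Without MRL-3, Bcl2 (-0.69) and Bax (-0.48) passed there as well. Against MSC, Bcl2 in MSC+RAW-TW also did not pass without MSC+RAW-TW a (-0.82), and Bak1 passed without MRL-2 (0.43) or MRL-3 (0.46). All 10 members had groups that did not overlap between MSC+RAW-TW and MSC, beside 78.4% of all genes tested. In MSC+RAW-LPS-TW compared with MSC 8 members did so, beside 57.7% of all genes, and between the co-cultures also 8, beside 78.1%.

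**Figure D3:**
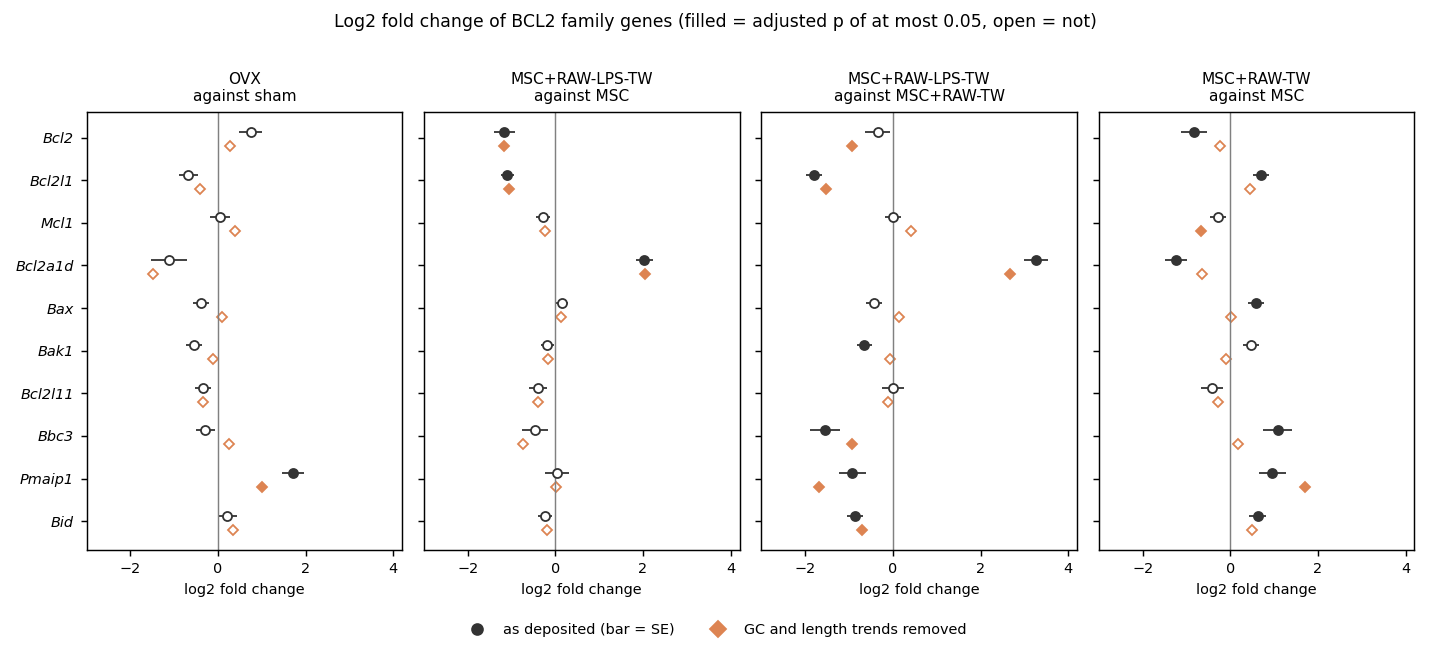
Log2 fold change (x axis) of the 10 genes in the 4 contrasts, as black circles with the SE as bars, and after removal of each library's GC and length trends as orange diamonds, filled where the adjusted p was at most 0.05. Pmaip1 in OVX against sham stayed filled at 1.01, and the 3 filled genes of MSC+RAW-LPS-TW against MSC kept their place, whereas Bax and Bak1 moved to near 0 in the contrasts with MSC+RAW-TW.

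The 3 copies of Bcl2a1 did not run in parallel at every step. Between the co-cultures, Bcl2a1a rose by 2.57 and Bcl2a1b by 1.28, both past the threshold in all 15 alternatives, beside 3.26 for Bcl2a1d. With trends removed these values were 1.95, 0.65 and 2.68. In MSC+RAW-TW against MSC, Bcl2a1a stood at 7.34 and 7.57 CPM and Bcl2a1b at 65.5 and 67.4 CPM in MSC+RAW-TW, and neither passed (log2 fold changes -0.39 and 0.10, adjusted p = 0.22 and 0.71), although Bcl2a1b did with trends removed, at 0.75. Bcl2a1b gave the most counts of the 3 in every library.

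**Figure D4:**
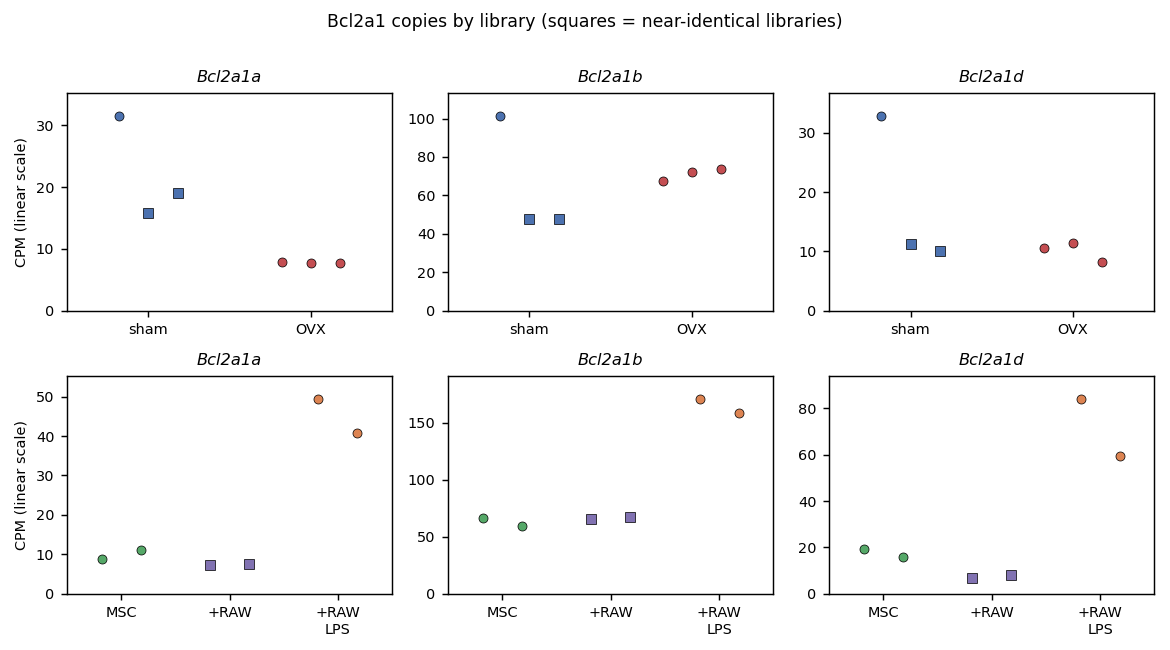
TMM-normalized CPM (linear axes from 0) of Bcl2a1a, Bcl2a1b and Bcl2a1d in each library, with the BMM experiment above and the MSC experiment below, 1 point a library and squares for near-identical libraries. All 3 copies were highest in MSC+RAW-LPS-TW within the MSC experiment, where Bcl2a1b reached 159 to 171 CPM, and in BMMs all 3 were highest in sham 1.

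Levels can be compared between genes per kilobase of exon, and on this scale Mcl1 and the Bcl2a1 copies made up most of the survival transcripts in every library. Mcl1 stood at 96.0 to 143 CPM per kb in OVX, 95.5 to 128 in sham, 101 to 118 in MSC, 87.7 to 88.5 in MSC+RAW-TW and 85.6 to 94.0 in MSC+RAW-LPS-TW. The summed Bcl2a1 copies stood at 104 to 111 CPM per kb in OVX, 90.5 to 200.5 in sham, 105 to 115 in MSC, 97.1 to 101 in MSC+RAW-TW and 313 to 367 in MSC+RAW-LPS-TW. The highest sham value was again that of sham 1, with 93.1 CPM per kb as the next. Bcl2 was below 2 CPM per kb in every library.

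As a share of the survival transcripts per kilobase (Bcl2, Bcl2l1, Mcl1 and the 3 Bcl2a1 copies), Bcl2l1 made up 14.7% and 14.8% in MSC, 24.8% and 24.0% in MSC+RAW-TW and 3.56% and 4.42% in MSC+RAW-LPS-TW. The Bcl2a1 copies made up 45.1% and 39.8%, 39.2% and 40.4%, and 78.1% and 73.4% in the same order. Survival transcripts were 2.86 and 2.95 times the summed transcripts of the 6 effector and BH3-only members in MSC, 1.92 times in both MSC+RAW-TW libraries, and 5.79 and 4.89 times in MSC+RAW-LPS-TW. In BMMs this ratio was 2.38 to 2.72 in OVX and 1.80 to 3.28 in sham, so the groups overlapped. These ratios are sums of transcripts and not of proteins.

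**Figure D5:**
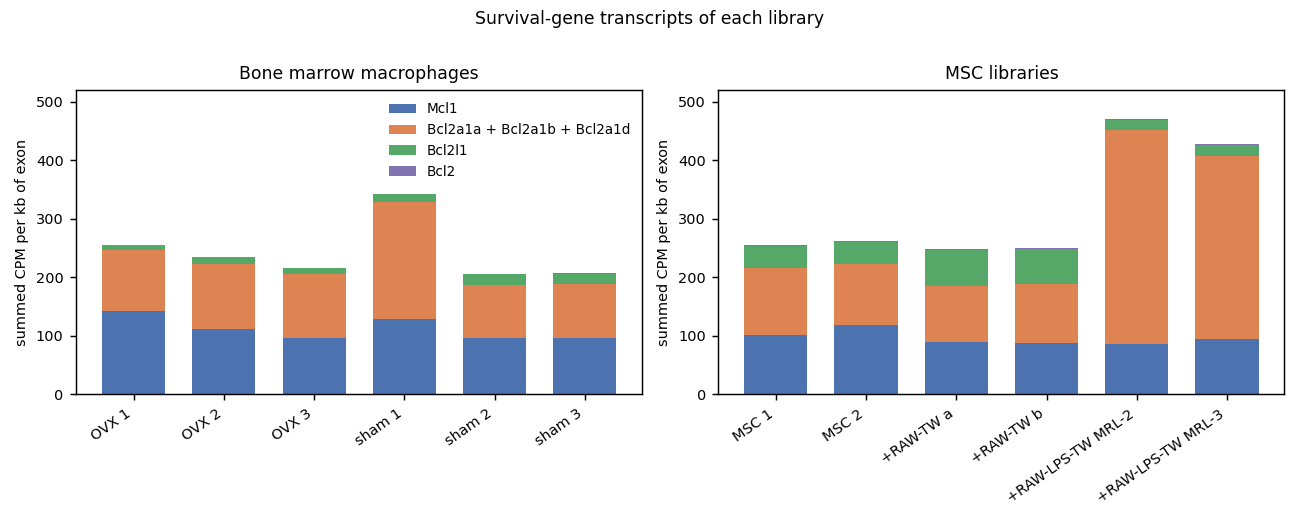
Summed CPM per kilobase of exon (y axis, from 0) of the survival genes in each library, stacked by gene. The Bcl2a1 copies reached 313 and 367 CPM per kb in the MSC+RAW-LPS-TW libraries, against 97.1 to 115 in the other MSC libraries, while Mcl1 stayed between 85.6 and 118.

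Around the members, the same lists were read for MSC+RAW-LPS-TW against MSC, where 20.9% of all genes passed (11.1% higher, 9.85% lower). Of 10 tested other BCL2 family genes, 5 rose, Bcl2a1a and Bcl2a1b among them, and 1 fell, and the largest rise above 5 CPM was that of Bnip3, a hypoxia-responsive mitophagy receptor, from 8.17 ± 1.72 to 41.6 ± 5.44 CPM (SD, n = 2 each, log2 fold change 2.34, adjusted p = 4.30e-07). Of 7 inhibitor of apoptosis genes and their antagonists, 2 rose and 1 fell, with Birc3 from 20.8 ± 2.69 to 133 ± 16.9 CPM (2.67, adjusted p = 1.44e-08) and Birc5, the mitotic survivin, at -0.63. Birc3 and the Bcl2a1 copies thus rose in the same libraries. Of 7 tested death receptor genes, 3 rose and 0 fell, with the receptor Fas from 9.45 ± 0.78 to 39.5 ± 0.39 CPM (2.06, adjusted p = 4.75e-07).

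Of 10 apoptosome and caspase genes, 2 rose, with Cycs, the gene of cytochrome c, at 0.78. Of 11 tested p53 genes, 1 rose and 2 fell, with Gadd45a, a stress-response gene, at 2.23 and Trp53inp1 at -0.89. Birc5 did not pass without MSC 1. The list medians were 0.59 for the other BCL2 family genes, 0.31 for the inhibitors and their antagonists, -0.02 for death receptors, -0.03 for the apoptosome and -0.01 for p53, beside -0.01 over all genes.

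Between the co-cultures, where 40.2% of all genes passed, the counts of rises and falls were 4 and 3, 4 and 2, 3 and 3, 3 and 1, and 2 and 3 in the same order of lists, with medians of 0.26, 1.01, -0.19, 0.25 and 0.05, the last of which turned to -0.36 with trends removed. Above a mean level of 5 CPM over the 6 libraries of the MSC experiment, the largest rises and falls were those of Bnip3 (2.96) and the effector-like Bok (-1.51), Birc3 (3.26) and the IAP antagonist Diablo (-1.57), Fas (2.54) and its adaptor Fadd (-2.09), the executioner caspase Casp6 (1.33), which had no counterpart above that level that fell, and Gadd45a (2.09) and the p53 target Phlda3 (-1.54). In MSC+RAW-TW against MSC the counts were 2 and 0, 2 and 4, 3 and 0, 0 and 1, and 3 and 1, with medians of 0.18, -0.60, -0.19, -0.13 and -0.29, and that of the death receptors turned to 0.30 with trends removed. There Diablo rose by 1.90, Fadd by 1.69, Phlda3 by 1.47 and Bad by 1.34, whereas Birc2, a ubiquitin ligase, had a log2 fold change of -1.61, Casp2, an initiator caspase, of -1.52, and Trp53inp1 of -1.41, or -0.48 without passing when trends were removed.

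Macrophage and stromal markers moved within the MSC experiment as well, and their part in the results was not tested. Cd68, a lysosomal macrophage marker, stood at 550 to 580 CPM in MSC, 714 to 728 CPM in MSC+RAW-TW and 71.9 to 88.2 CPM in MSC+RAW-LPS-TW, which is the order of Bcl2l1. Adgre1, the gene of F4/80, stood at 511 to 584, 332 to 337 and 1404 to 1535 CPM, which is the order of Bcl2a1d. By group means, the markers Lyz2, Csf1r, C1qa, Tyrobp and Fcgr1 had the order of Cd68. Itgam and Ptprc had the order of Adgre1, and Mertk had neither. S100a8, a neutrophil and monocyte marker, stood at 10.9 to 15.8, 29.7 to 32.9 and 341 to 517 CPM, while its defining partner S100a9 was at 0 in all MSC and MSC+RAW-TW libraries and at no more than 0.06 CPM in MSC+RAW-LPS-TW. Of the 6 neutrophil markers, 1 was above 1 CPM in MSC and 2 in MSC+RAW-LPS-TW, and the summed level was 11.7 to 16.4 and 370 to 556 CPM. The 10 stromal markers summed to 2646 to 2778 CPM in MSC, 2138 to 2146 CPM in MSC+RAW-TW and 3831 to 3846 CPM in MSC+RAW-LPS-TW, while the median stromal marker stood at 117 to 119, 135 to 137 and 127 to 136 CPM. B cell and erythroid markers summed to at most 22.8 and 4.32 CPM in any library of either experiment.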

How the data were processed

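Poly(A) RNA of 6 BMM and 6 MSC libraries was sequenced as paired reads of 150 bases. Per the labels and the study's methods, the authors trimmed reads with Trim Galore 0.6.7, aligned them to GRCm38 with HISAT2 2.1.0 and counted them per Ensembl gene with featureCounts 2.0.1. The deposited values are raw counts, 1 table for each experiment. Strand and pair settings of the counting are not given in the sources used here. Among counts of 1 to 20, 60.0% to 71.4% were even, so each read pair may have been counted as 2, which was tried by halving the counts.

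The 10 members, the gene lists and the markers were chosen with earlier results of these data known, so no list is independent evidence. Of 55487 genes, 55141 were named through GENCODE (GRCm38). Both MSC+RAW-TW columns bear the same name and the MSC+RAW-LPS-TW columns bear numbers that the labels do not, so they were assigned to groups only. Counts were fitted in edgeR 4.0.16 (R 4.3.3) with TMM, filterByExpr and the quasi-likelihood F-test, two-sided, with Benjamini-Hochberg adjustment over all genes tested. A gene passed at an adjusted p of at most 0.05. Near-identical libraries were summed. CPM values use TMM factors computed within each experiment, so levels across the 2 experiments are not tested. In mean ± SD, near-identical libraries enter as their mean. Named genes were all members, Bcl2a1a, Bcl2a1b, and from each list the largest rise and fall that passed with a mean of at least 5 CPM. The falls among the apoptosome and caspase genes in MSC+RAW-LPS-TW against MSC are not reported here.

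Whether replicate numbers paired OVX with sham could not be decided. Deviations of same-numbered libraries correlated at 0.41, -0.03 and 0.35, but the near-identical sham libraries cannot be told apart as partners. On simulated counts for OVX against sham (16768 genes) the test recovered 1 of 67, 14 of 67 and 59 of 66 genes changed 1.5-, 2- and 4-fold, with 7 false calls. For MSC+RAW-LPS-TW against MSC (20499 genes) it recovered 10 of 67, 39 of 67 and 56 of 66, with 9 false calls. The alternatives were RLE factors, DESeq2 1.42.0, other filters, all 6 libraries as separate samples, blocks, removal of each library's lowess trends on GC content and gene length (span 0.3), halved counts, a 2-fold limit, summed Bcl2a1 copies, the compared groups alone and leaving out each library.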

Additional observations from a re-analysis of the deposited data

How the results depend on the processing

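In OVX against sham, where 1 member passed, 3 passed with DESeq2, with no filter, with all 6 libraries separate and with the number series of the library identifiers as a block (chosen after seeing the data), 5 with the replicate block, and 1 to 2 when each library was left out. The numbers share no stated origin, so the block is given only here. No paired analysis by replicate number was possible for the MSC contrasts because the columns of both co-cultures carry no replicate number of the labels. The number series was used there as a block in its place. In MSC+RAW-TW against MSC, 7 passed, and 2 did so with GC and length trends removed, 2 with a 2-fold limit in addition, and 2 to 8 when each library was left out. Between the co-cultures, 6 passed, 3 did so with the 2-fold limit, and 6 to 8 when each library was left out. In MSC+RAW-LPS-TW against MSC, 3 passed, and 3 to 4 when each library was left out. Over all genes, 2193 passed in OVX against sham, 1046 with trends removed (389 higher, 657 lower, against 1216 and 977), 6318 with the replicate block and 309 without OVX 2. In MSC+RAW-TW against MSC, 5862 passed (2836 higher, 3026 lower) and 4193 with trends removed (2482 and 1711).

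Directions that turned were of genes that did not pass. In OVX against sham these were Bax (0.089) and Bbc3 (0.24) with trends removed, Mcl1 without OVX 1 (-0.12, with 0.28 without sham 1 as the other end of the range), and Bcl2a1b with all libraries separate (0.12), with the replicate block (0.22), with the number series (0.15) and without sham 1 (0.57). In MSC+RAW-LPS-TW against MSC it was Pmaip1, at -0.27 without MSC 2 and -0.037 without MRL-2, and up to 0.43 without MSC 1. Between the co-cultures, Bcl2l11 was at -0.0064 with RLE, -0.0073 with DESeq2, -0.00054 with no filter, -0.0023 with a mean CPM of at least 1, -0.11 with trends removed and -0.024 to 0.088 when each library was left out. Mcl1 there was at 0.028 with all libraries separate, 0.025 with the number series, 0.41 with trends removed, 0.0049 with the compared groups alone and -0.063 to 0.072 when each library was left out, and Bax was at 0.13 with trends removed. In MSC+RAW-TW against MSC, Bak1 (-0.10) and Bcl2a1a (0.25) turned with trends removed. The cause was not tested for any of these. In simulated counts of OVX against sham, edgeR recovered 1 of 67 genes changed 1.5-fold and 14 of 67 changed 2-fold, and DESeq2 6 and 36 of 67, with 7 and 37 false calls, so many differences of these sizes can be missed there.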
